A study of Mus musculus with 4 samples.

Results

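The genes that encode the proteins of the cytosolic ribosome were followed in the retina of 3-week-old mice, in 2 wild-type (WT) libraries and 2 libraries labelled Q344X, after a mutation studied as a cause of dominantly inherited retinitis pigmentosa, in which photoreceptors degenerate. Members were found by symbol, as the Rpl, Rps, Rplp and Rpsa genes with a mean of at least 10 normalized counts over the 4 libraries, without pseudogenes. Of 89 matching symbols among 52636 genes, 84 passed the minimum and 3 of these are typed as processed pseudogenes in the annotation, which left 81 genes, 49 of the large and 32 of the small subunit. The other 5 were below the minimum and include Rpl10l and Rpl39l, paralogs for which at most 1 read was seen in any library. Retinas of both groups were stored in a stabilization reagent, polyadenylated RNA was selected and directional libraries were sequenced. The series' design text counts 2 animals per group after poor RNA and outliers were dropped, while the extraction protocol counts 3 Q344X and 2 WT. The labels do not say how the Q344X allele was made, whether mice carried 1 or 2 copies of it, or the sex of the animals, and they do not state that each library is 1 animal, so p-values measure only the spread between these libraries.

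A cytosolic ribosome joins a small subunit, which reads the mRNA, and a large subunit, which forms the peptide bond, and nearly every ribosomal protein sits in it as a single copy. The mRNAs of these proteins are abundant and short, and begin with a run of pyrimidines at the cap, the terminal oligopyrimidine (TOP) tract, through which the kinase complex mTORC1 and the protein LARP1 control their translation together. Photoreceptors renew their outer segments throughout life and are among the neurons with a high demand for protein synthesis.

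The stretch around the annotated start is shown for some members with large or small differences, and for Rpl38, which holds both stretches searched for. These stretches are shown because TOP tracts lie at the start of mRNAs of this gene family, but not every line holds a marked stretch. Each line runs 5′ to 3′ along the transcript, from 60 bases before the RefSeq start (GRCm38.p6) to 30 bases from it on, and 61 of the 81 members matched the table by symbol. Capitals mark CTTTC or CTTTT on the transcript strand, a stretch found in many TOP tracts, and CCGGAA on either strand, the core bound by ETS factors such as GABP. In Rpl5 and Rps15a the marked CTTTC lies before the RefSeq start, so it is not placed at the cap of that transcript.
Rpl5 (chr5:107900468-107900557, plus strand): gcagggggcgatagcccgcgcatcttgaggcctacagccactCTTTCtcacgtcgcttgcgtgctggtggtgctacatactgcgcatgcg
Rps3a1 (chr3:86142639-86142728, minus strand): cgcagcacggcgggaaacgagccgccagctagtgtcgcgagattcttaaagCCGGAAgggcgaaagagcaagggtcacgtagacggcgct
Rps15a (chr7:118116118-118116207, minus strand): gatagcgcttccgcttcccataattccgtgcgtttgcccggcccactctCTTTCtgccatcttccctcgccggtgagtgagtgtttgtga
Rpl41 (chr10:128549139-128549228, minus strand): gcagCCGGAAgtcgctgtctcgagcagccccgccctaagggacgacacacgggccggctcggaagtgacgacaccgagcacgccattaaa
Rpl38 (chr11:114668520-114668609, plus strand): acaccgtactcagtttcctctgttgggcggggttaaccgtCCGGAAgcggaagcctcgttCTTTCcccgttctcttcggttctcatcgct
Rpl13a (chr7:45128716-45128805, minus strand): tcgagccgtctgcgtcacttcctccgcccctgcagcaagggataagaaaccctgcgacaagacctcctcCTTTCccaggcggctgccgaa
Rpl10 (chrX:74270756-74270845, plus strand): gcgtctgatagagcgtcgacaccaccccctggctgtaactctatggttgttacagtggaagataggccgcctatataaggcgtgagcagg
Rpl3l (chr17:24727766-24727855, plus strand): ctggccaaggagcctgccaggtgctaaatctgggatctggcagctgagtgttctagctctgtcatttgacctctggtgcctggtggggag

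Searched in 50 bases either side of the start on the transcript strand, CTTTC or CTTTT was present in 36 of 61 members (59.0%) in 21.4% of the promoters of 27025 genes and in 16.2% of those of tested genes. CCGGAA, searched on both strands of the whole window that RefSeq's table gives, 250 bases before to 50 after the start, was present in 31 of 61 members (50.8%) and in 15.2% of all promoters, or 25.9% of the promoters of tested genes. TATAAA was found in 6 members (9.84%, against 14.2% of all promoters and 7.33% of those of tested genes) and CACGTG in 5 (8.20%, against 7.24% and 9.79%), so that both comparisons turned with the background. AAGATGG, the core of YY1 sites, was found in 9 (14.8%, against 6.48% and 6.77%), each on both strands. AAGATGG can share its first bases with the end of CCGGAA, and no other 2 of these motifs were checked for overlap. The median log2 fold change of Q344X against WT was 0.74 in the members with CTTTC or CTTTT and 0.91 in those without, and 0.88 with CCGGAA and 0.78 without. The stretch of Rpl5 holds CTTTC and that of Rps3a1 holds CCGGAA, and Rpl10 and Rpl3l hold neither in the bases shown. Rplp0 and Rps24, which rose and are not shown, also hold neither in the same bases around the start. Of 9 members that rose and had a matched promoter, 4 held CTTTC or CTTTT and 2 held CCGGAA in the searches above. No test of these shares was made.

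The libraries held between 18452679 and 19706573 reads in genes. All 11 defining retinal markers were present, with summed levels of 373234 and 419337 in WT and 307460 and 351109 in Q344X. One library stood apart: the 12 lens markers, crystallins among them, summed to 246451 and 309932 in WT and 259072 in Q344X replicate 1, but to 7333 in Q344X replicate 2, with none of the 12 at 0. The same library had the highest ribosomal protein levels, and the part of lens RNA in that difference was not tested. For members named below, the value without this library is given where it moved by over 1.5 times. The 8 pigment epithelium markers summed to 3987 and 4395 in WT and 5271 and 6818 in Q344X, the 6 red blood cell markers to 494 and 525 against 127 and 265, the 6 muscle markers to 119 and 108 against 86.1 and 87.3, and the 6 progenitor and proliferation markers to 1304 and 1388 against 917 and 1040, none of them with a marker at 0 in every library. In a bulk retina, a change in the number of cells of a type and a change in RNA per cell cannot be told apart.

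Of the 81 ribosomal protein genes, 12 rose in the Q344X retina and 69 did not pass the test, and most fold changes were positive. The median log2 fold change over the 81 genes was 0.82, with quartiles of 0.64 and 0.97, whereas the median over all 16833 genes tested was 0.02. Fold changes were positive in 79 of 81 genes. In limma's test, with adjustment over all genes, the 12 members that rose, with 0 that fell, made a share of 14.8% higher against 5.46% of all genes tested and 0% lower against 9.10%. One of the 12, the paralog Rpl3l, reached the minimum mean only through Q344X, and among the 77 members other than paralogs 11 rose (14.3%). A further 32 members had an adjusted p between 0.05 and 0.1, a range not counted over all genes. An unadjusted p under 0.05 was found in 56 members, all of them higher. Of all 16833 genes tested, 2690 were higher and 3143 lower at that unadjusted p. Both Q344X libraries were above both WT libraries in 67 of 81 members (82.7%, against 31.4% of all genes tested) and below them in 1, Rpl13a (against 31.7%).

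Single libraries moved both the number of members past the threshold and the size of the difference. Without WT replicate 1, 3 members rose (Rpl5, Rps3a1 and Rpl3l, median 0.65 over the family), a share near the 3.32% of all genes that were then higher. Without WT replicate 2, 13 rose, of which 5 were among the 12, beside 3.41% of all genes (median 1.0). Without Q344X replicate 1, 78 rose, beside 14.2% of all genes, and the median was 1.11. Without Q344X replicate 2, the library with little lens RNA, 14 of 80 tested members rose, 10 of them among the 12, beside 7.61% of all genes, and the median was 0.50. Correcting the libraries for the length and GC content of genes gave 47 members that rose, beside 11.9% of all genes, and no member passed when every gene above 0 was tested (limma, 47 at an unadjusted p under 0.05).

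**Figure D1:**
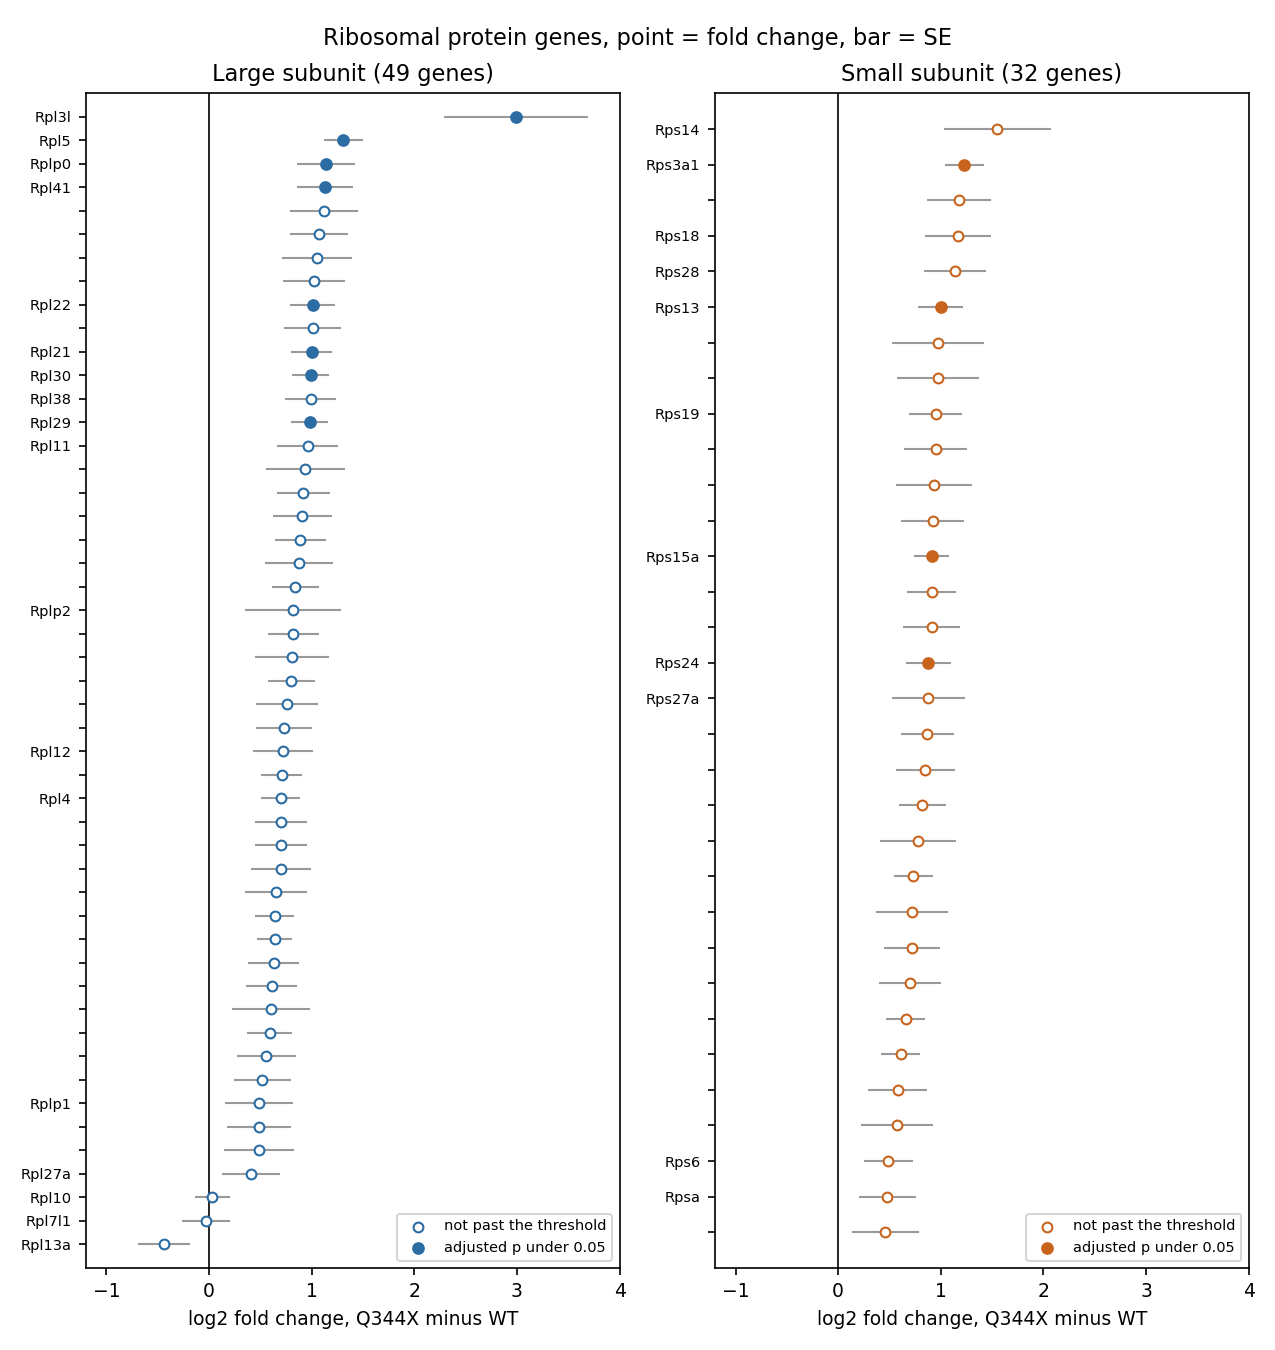
Log2 fold change of Q344X against WT (horizontal axis, point) with its SE (bar) for each ribosomal protein gene, in order of fold change and with selected genes named, for 49 large-subunit genes (left) and 32 small-subunit genes (right); filled points passed the adjusted threshold. Most genes lie between 0.4 and 1.4, and Rpl10, Rpl7l1 and Rpl13a stand at or below 0.

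In each library the members took up 0.770% and 0.978% of all normalized counts in WT replicates 1 and 2, and 1.26% and 2.05% in Q344X replicates 1 and 2. The 95% Wilson intervals, which cover counting error only, ran from 0.766% to 0.774%, 0.974% to 0.982%, 1.26% to 1.27% and 2.04% to 2.06%. The 2 groups did not overlap, but Q344X replicate 1 was nearer to WT replicate 2 than to Q344X replicate 2. The mean share was 0.874% ± 0.147 in WT and 1.66% ± 0.556 in Q344X (SD, n = 2), a ratio of 1.90. The difference of 0.782 percentage points was 0.389 without Q344X replicate 2 and 1.18 without Q344X replicate 1. An exact two-sided permutation test gave p = 0.33, which is the smallest value that 2 against 2 libraries allow.

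The order of the libraries was nearly the same in every member. WT replicate 1 was the lowest library in 76 of 81 members and Q344X replicate 2 the highest in 79, and 65 followed the order WT 1, WT 2, Q344X 1, Q344X 2. Relative to each gene's mean over the 4 libraries, the 77 members other than paralogs had median log2 levels of -0.59 and -0.23 in WT and 0.11 and 0.72 in Q344X. Libraries of the same genotype also differed in 1 direction across the family: the median difference of replicate 2 and replicate 1 was 0.38 in WT and 0.66 in Q344X over the 81 members, beside 0.02 and 0.01 over all genes tested.

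**Figure D2:**
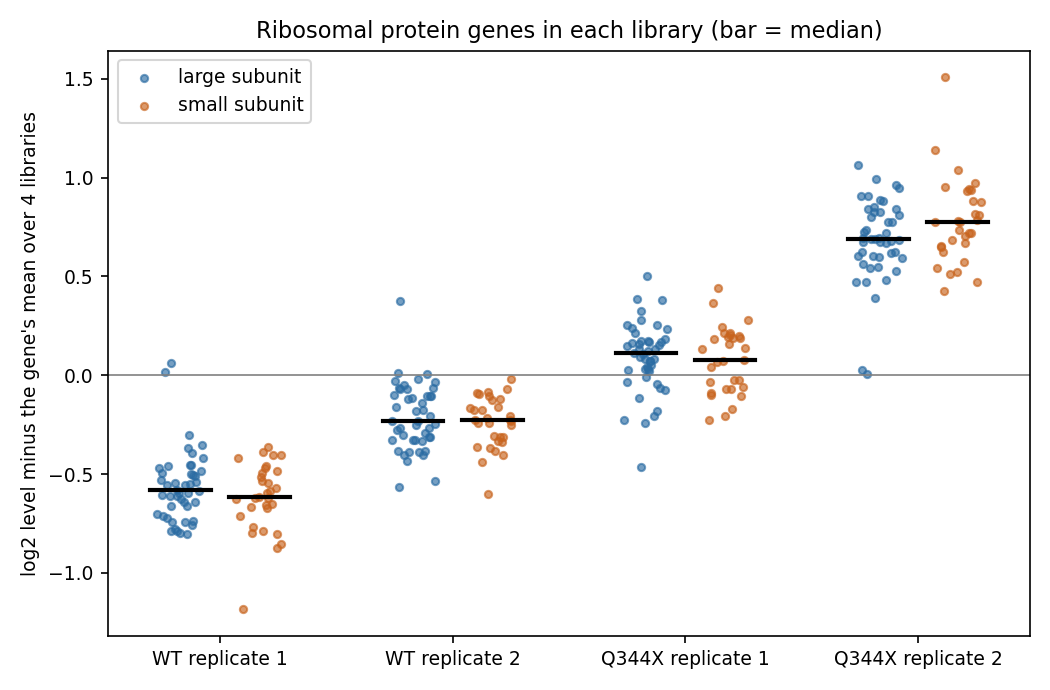
Log2 level of each of 77 ribosomal protein genes minus its mean over the 4 libraries (vertical axis), by library and subunit, with the median as a bar. The medians over both subunits are -0.59 and -0.23 in the WT libraries and 0.11 and 0.72 in the Q344X libraries.

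Large and small subunit genes had close medians. The large subunit had a median log2 fold change of 0.80, with 8 of 49 higher, 0 lower and 41 not past the threshold, and the small subunit had 0.88, with 4 of 32 higher, 0 lower and 28 not past (against 5.46% higher among all genes). Without paralogs the medians were 0.81 over 46 and 0.88 over 31 genes. The summed normalized counts of the large subunit were 1.31 and 1.27 times those of the small subunit in WT and 1.28 and 1.11 times in Q344X. Q344X replicate 2 had the lowest ratio. Without Rps14 the 4 ratios were 1.4, 1.38, 1.4 and 1.29.

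The stalk of the large subunit recruits the GTPases of translation, and 1 of its 4 members here rose. In the whole family 14.8% rose, and of all genes tested 5.46%. Rplp0, the stalk base (ENSMUSG00000067274, chromosome 5, 115559467 to 115563727, GRCm38), was at 2697 and 3487 normalized counts in WT and 5373 and 8532 in Q344X, so the groups did not overlap. It rose, with a log2 fold change of 1.14 ± 0.28 (SE, limma adjusted p = 0.0465), but had adjusted p = 0.118 without WT replicate 1, 0.0524 with a minimum mean of 50 and 0.0608 under quantile normalization. Rplp1 was at 3185 and 4540 in WT and 3985 and 7202 in Q344X (0.49 ± 0.33, adjusted p = 0.336), and Rplp2 at 1269 and 2134 against 1852 and 4572 (0.82 ± 0.47, adjusted p = 0.263). These 2 acidic proteins form the flexible dimers bound to Rplp0, and the Q344X libraries overlapped the WT libraries in both. Rpl12, which sits at the base with Rplp0, had 0.72 ± 0.29, with adjusted p = 0.141. Without Q344X replicate 2 the log2 fold changes of Rplp1, Rplp2 and Rpl12 were 0.07, 0.17 and 0.39. Differences between stalk members were not tested.

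Rpl5 and Rpl11 bind the small ribosomal RNA of the large subunit and, when free of the ribosome, hold the ubiquitin ligase MDM2. Rpl5 (ENSMUSG00000058558, chromosome 5, 107900502 to 107909005) was at 1660 and 1879 in WT and 3934 and 4883 in Q344X. Both Q344X values lay far above both WT values, and the spread within each group was small. The mean went from 1769 ± 155 to 4408 ± 671 (SD, n = 2), and the log2 fold change of 1.31 ± 0.19 (SE, adjusted p = 0.0154) had the lowest adjusted p of the family. With any 1 library left out, Rpl5 stayed past the threshold, with adjusted p from 7.32e-05 to 0.0306. Rpl11 was at 1365 and 2069 in WT and 2609 and 4086 in Q344X (0.96 ± 0.30, adjusted p = 0.0857, and 0.63 without Q344X replicate 2). Of 7 genes around p53, listed because free Rpl5 and Rpl11 act through MDM2, Cdkn1a (3.19), Bbc3 (2.38) and Bax (0.99) rose, Ccng1 (-0.84) fell and 3 did not pass. The share higher was 42.9%, beside 5.46% higher and 9.10% lower of all genes tested. Bax and Ccng1 did not pass when either WT library was left out.

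Genes of the peptidyl transferase centre and the tRNA corridor included the member that moved least. Rpl10, an X-linked protein that reaches toward the catalytic centre (ENSMUSG00000008682, chromosome X, 74270812 to 74273135), was at 1473 and 1404 in WT and 1483 and 1460 in Q344X. Rpl10 had the smallest ratio of highest to lowest library in the family, and it showed neither the step between genotypes (0.03 ± 0.17, adjusted p = 0.901) nor those between replicates (-0.07 in WT and -0.02 in Q344X). Its sign turned under 75th percentile scaling (-0.02) and quantile normalization (-0.03). Rpl3, which shapes the catalytic centre, was at 3154 and 4372 in WT and 4822 and 6708 in Q344X (0.61 ± 0.25). Rpl8 had 0.73, and Rpl10a 0.84 ± 0.23 with adjusted p = 0.0584. Rpl3 had 0.38 and Rpl8 0.42 without Q344X replicate 2.

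The 8 genes that line or surround the tunnel for the growing chain had a narrow range of log2 fold changes, 0.49 to 0.94, and none passed. In limma 5 of the 8 had an unadjusted p under 0.05, all higher, beside 56 of the 81 members. Rpl4, which forms part of the tunnel wall, was at 8125 and 9556 normalized counts in WT and 13202 and 15554 in Q344X. The groups were well apart (0.70 ± 0.19), with adjusted p = 0.0637. Rpl39, at the tunnel exit, was at 606 and 958 against 1048 and 2038 (0.94 ± 0.38), and Rpl31, also at the exit, was at 647 and 874 against 773 and 1441, with Q344X replicate 1 below WT replicate 2. Rpl39 had 0.46 and Rpl31 0.04 without Q344X replicate 2.

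Among the large-subunit genes outside these groups, Rpl22, Rpl21, Rpl30, Rpl29 and Rpl41 rose. Rpl30, which also binds its own transcript in yeast, was at 1825 and 1727 in WT and 3261 and 3798 in Q344X (0.99 ± 0.18, adjusted p = 0.0243). Rpl29 was at 841 and 909 against 1601 and 1873 (0.98 ± 0.18, adjusted p = 0.0254). In both genes the difference between replicates was small beside that between genotypes. Rpl41, the smallest ribosomal protein, was at 1654 and 2117 against 3303 and 5107 (1.13 ± 0.27, adjusted p = 0.0434), Rpl22 at 2426 and 2854 against 4533 and 6232 (1.01 ± 0.22, adjusted p = 0.0368) and Rpl21 at 1854 and 2174 against 3555 and 4508 (1.0 ± 0.20, adjusted p = 0.0312). Rpl38, which has a part in the translation of Hox mRNAs, was at 563 and 710 against 1032 and 1523 (0.99 ± 0.25, adjusted p = 0.0534). Rpl21, Rpl22, Rpl29 and Rpl30 did not pass when either WT library was left out, and Rpl41 did not without WT replicate 1. Under quantile normalization Rpl22 (adjusted p = 0.0515) and Rpl41 (adjusted p = 0.0561) did not pass.

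Rpl13a was the only member with both Q344X libraries below both WT libraries. This component of the GAIT complex, which represses inflammatory transcripts when the protein leaves the ribosome (ENSMUSG00000074129, chromosome 7, 45125558 to 45128761), was at 431 and 535 in WT and 299 and 420 in Q344X (-0.44 ± 0.25, adjusted p = 0.260, and -0.68 without Q344X replicate 2). It also hosts small nucleolar RNAs. On the same strand, 35.4% of its annotated exon bases are shared with Gm45713, Mir5121 and Snord33, so its reads may be split or dropped. Rpl27a, the next lowest of the large-subunit genes other than paralogs and Rpl10, was at 1349 and 1819 in WT and 1667 and 2599 in Q344X (0.41 ± 0.28, and 0.09 without Q344X replicate 2).

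In the small subunit, Rps3a1, Rps13, Rps15a and Rps24 rose. Rps3a1 (ENSMUSG00000028081, chromosome 3, 86137940 to 86142702) was at 1960 and 1991 in WT and 4104 and 5210 in Q344X. The WT libraries were nearly equal, and the log2 fold change was 1.23 ± 0.19 (SE, adjusted p = 0.0173). Like Rpl5, it passed with any 1 library left out, with adjusted p from 0.000113 to 0.0382. Rps15a was at 2733 and 2787 against 4871 and 5513 (0.91 ± 0.17, adjusted p = 0.0268), Rps13 at 1079 and 1273 against 2015 and 2735 (1.0 ± 0.22, adjusted p = 0.0370) and Rps24 at 2808 and 3116 against 4650 and 6383 (0.88 ± 0.22, adjusted p = 0.0477). Rps13 and Rps15a lost their call when WT replicate 1 or WT replicate 2 was dropped. Rps24 lost its call when WT replicate 1, WT replicate 2 or Q344X replicate 2 was dropped. Rps24 also missed the threshold with a minimum mean of 50 (adjusted p = 0.0525), under 75th percentile scaling (0.0519) and under quantile normalization (0.0662).

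Rps14 had the largest fold change of the small subunit and the widest spread. This platform protein near the mRNA exit, whose loss underlies the anaemia of the human 5q syndrome (ENSMUSG00000024608, chromosome 18, 60747098 to 60778546), was at 3964 and 6982 in WT and 9278 and 25589 in Q344X. Q344X replicate 2 held 25589, far above the other 3 libraries. The log2 fold change was 1.55 ± 0.52 with adjusted p = 0.0943, and 0.82 without Q344X replicate 2 (adjusted p = 0.0477). The 7 genes of the mRNA exit and platform had a median of 0.97, and none passed. In limma 5 of the 7 had an unadjusted p under 0.05, beside 56 of the 81 members. Within this group, Rps28 had 1.14 ± 0.30 (adjusted p = 0.0578) and Rpsa, the laminin receptor precursor, 0.48 ± 0.28 (adjusted p = 0.277). Without Q344X replicate 2, Rps28 passed at 0.78 (adjusted p = 0.0488) and Rpsa had 0.15.

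The 5 genes of mRNA entry and decoding lay close together, at log2 fold changes of 0.72 to 0.95, and none passed. In limma 3 of the 5 had an unadjusted p under 0.05, beside 56 of the 81 members. Rps3, which sits at the mRNA entry, was at 5337 and 7873 in WT and 7900 and 15604 in Q344X, where Q344X replicate 1 barely exceeded WT replicate 2. Rps6, the target of S6 kinase, was at 1241 and 1467 against 1572 and 2274 (0.49 ± 0.24, adjusted p = 0.202). Rps27a, made as a fusion with ubiquitin, was at 2008 and 2713 against 3045 and 6086 (0.88 ± 0.36, adjusted p = 0.142). Rps18, in the head of the subunit, was at 1808 and 2627 against 3738 and 6406. Its groups were well apart, but its fold change of 1.17 ± 0.32 had adjusted p = 0.0621. Without Q344X replicate 2, Rps3 had 0.29, Rps6 0.22 and Rps27a 0.38, and Rps18 passed at 0.78 (adjusted p = 0.0369).

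Mutations of 19 listed genes cause Diamond-Blackfan anaemia, a failure of red cell production, and both subunits are represented. Of these, Rpl5, Rps15a and Rps24 rose, 0 fell and 16 did not pass, with a median of 0.91 and a range of 0.49 to 1.31. The share that rose, 15.8%, was near the 14.8% of the whole family, whose median was 0.82, beside 5.46% of all genes tested. Rps19, the gene most often affected, was at 968 and 1068 in WT and 1555 and 2478 in Q344X (0.95 ± 0.26, adjusted p = 0.0615, and 0.61 without Q344X replicate 2).

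The 4 paralogs ranged from -0.03 to 2.99 in log2 fold change, and no difference from the family was tested. Rpl3l, the paralog that replaces Rpl3 in skeletal and heart muscle (ENSMUSG00000002500, chromosome 17, 24727820 to 24736143), was at 1.04 and 4.01 normalized counts in WT and 15.8 and 37.4 in Q344X, that is, at 1 read in the lowest library. It rose (2.99 ± 0.70, adjusted p = 0.0436), beside muscle markers whose sum, given above, was lower in both Q344X libraries: Mylpf fell (-1.44 ± 0.30) and Acta1 had 0.71 ± 0.32. The part of muscle RNA in the rise of Rpl3l was not tested. Its WT mean of 2.53 is under the minimum of 10 and its Q344X mean of 26.6 above it, so that it was tested only through the group where it was high. Without Q344X replicate 2 its mean was below the minimum for testing. Rps27l, a p53-responsive paralog of Rps27, was at 287 and 359 against 456 and 814 (0.92 ± 0.31, adjusted p = 0.0989), beside 1529 and 2353 against 2363 and 5861 for Rps27 (0.97 ± 0.45). Rpl22l1 was at 737 and 921 against 868 and 1540 (0.49 ± 0.31), beside 1.01 for Rpl22. Rpl7l1, a nucleolar protein related to Rpl7, was at 1030 and 1292 against 980 and 1309, with overlapping groups and a log2 fold change of -0.03 ± 0.23, beside 0.63 for Rpl7. When Q344X replicate 2 was left out, Rps27l had 0.51, Rps27 0.32, Rpl22l1 0.07, Rpl7l1 -0.23 and Rpl7 0.39.

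The 12 members that rose had larger fold changes and smaller differences between replicates than the rest, both of which enter the test. Their median log2 fold change was 1.01, against 0.76 in the other 69, and their median difference between the Q344X libraries was 0.39, against 0.67. Between the WT libraries the medians were 0.20 and 0.40. Across the 77 members other than paralogs, the difference between the 2 Q344X libraries went with that between the 2 WT libraries (Pearson r = 0.83, Spearman rho = 0.80, a description across genes that share the same 4 libraries). Rps14, Rplp2 and Rps27 had the widest steps, 1.46, 1.30 and 1.31 in Q344X and 0.82, 0.75 and 0.62 in WT. By contrast, the fold change between genotypes had little relation to the difference between the Q344X libraries (r = 0.22, rho = 0.12), with which it shares the Q344X libraries.

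**Figure D3:**
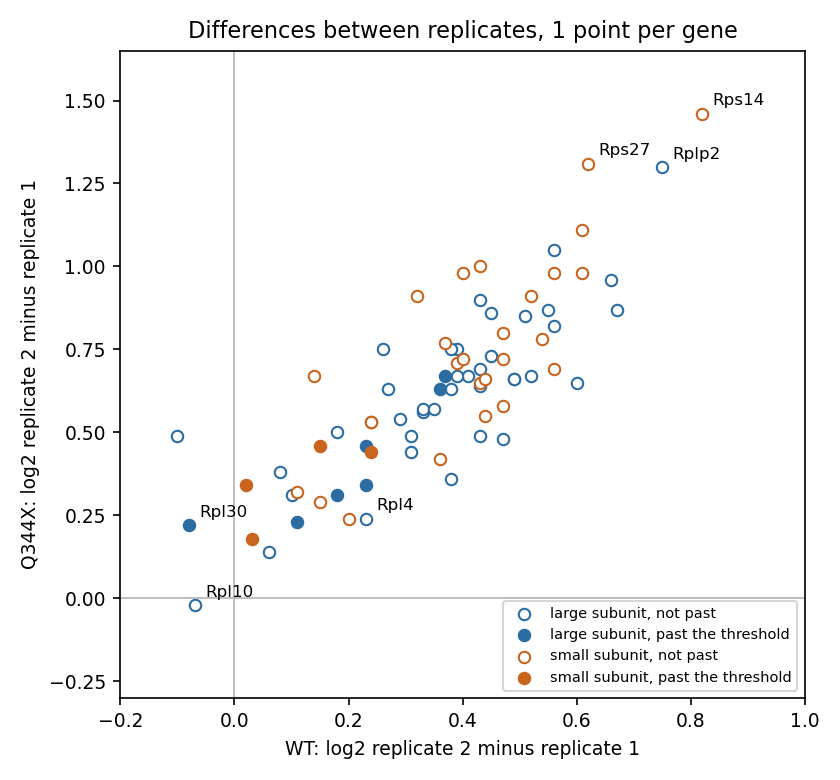
Log2 difference of replicate 2 and replicate 1 in WT (horizontal axis) and in Q344X (vertical axis), 1 point per gene for 77 ribosomal protein genes; filled points rose in Q344X. The points run from Rpl10 near 0 to Rps14 at 0.82 and 1.46, and 10 of the 12 genes that rose lie below the family's median difference in Q344X; Rpl3l, a paralog, is not plotted.

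Levels were compared between genes per kilobase of the shortest coding transcript with a consensus coding sequence. The median was 2455 normalized counts per kilobase in WT and 4766 in Q344X over 77 members, and the upper quartile was 2.34 and 2.41 times the lower quartile. The order of the members was nearly kept between genotypes (Spearman rho = 0.967 across genes). Rps14 was first in both, at 9168 in WT and 29202 in Q344X (15542 in Q344X replicate 1 and 42863 in replicate 2), and Rps15 second, at 7903 and 13412. The groups overlapped for Rps15, at 9314 in WT replicate 2 and 9308 in Q344X replicate 1. Its log2 fold change of 0.72 was 0.26 without Q344X replicate 2. Rplp1 went from rank 3 to 8 and Rps27 from rank 8 to 3, and the replicate values of these 2 genes overlap (7985 and 14434 per kilobase for Rplp1 and 6850 and 16990 for Rps27 in Q344X). Rpl24 was last, at 175 and 290 per kilobase. For Rpl24, 47.0% of the exon bases lie in another annotated gene on the same strand, Gm28037, so its reads may be split or dropped.

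Counting bears on these levels, since ribosomal proteins have many near-identical processed pseudogenes and the sources used here do not say how reads that fit several places were treated. The table held 297 rows of ribosomal protein pseudogenes, 108 of them at 0 in every library, and together they summed to between 0.852% and 1.32% of the members' counts per library. Of 37 tested, Rpl15-ps2 and Rpl13-ps1 rose, Rps3a3 and Rpl36-ps9 fell, and the median log2 fold change was 0.69. Rps3a3, whose symbol fits the family's pattern although it is typed as a processed pseudogene (chromosome 13, 108670603 to 108671397, within Pde4d), was at 187 and 371 normalized counts in WT and 14.9 and 22.1 in Q344X (-3.79 ± 0.41, adjusted p = 0.00789), the reverse of its parent Rps3a1. Pde4d itself was at 582 and 686 against 500 and 455 (-0.41 ± 0.19, adjusted p = 0.191). Exons of 27 members overlap another gene on the same strand and those of 19 on the opposite strand, and for Rpl35 (66.2%) and Rpl23a (59.7%) the overlap on the opposite strand covers over 50% of exon bases. The kit is directional, but the sources used here do not say whether the counting used strand.

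Some ribosomal proteins have symbols that fall outside the pattern. Fau, which encodes a small-subunit protein fused to a ubiquitin-like protein, was at 1170 and 1568 in WT and 1814 and 2962 in Q344X (0.77 ± 0.29, adjusted p = 0.123). Rack1, the small-subunit scaffold, had 0.63 ± 0.32 and Rpl36al 0.47 ± 0.37, and the groups overlapped in both. Fau had 0.42, Rack1 0.23 and Rpl36al 0.01 without Q344X replicate 2.

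Other genes of the translation machinery had smaller medians, a difference between lists that was not tested. Of 15 elongation factors and other genes with TOP tracts, Eif3e rose (0.78 ± 0.19, adjusted p = 0.0463), 0 fell and 14 did not pass (6.67% higher, median 0.54). Eef1a1, which brings aminoacyl-tRNA to the ribosome, was at 26344 and 33516 in WT and 36347 and 51704 in Q344X (0.54 ± 0.25, and 0.29 without Q344X replicate 2), and Eef2, the translocase, had 0.48 ± 0.21. Of 25 initiation factors, 5 rose, 0 fell and 20 did not pass (20.0% higher, median 0.39). Of all genes tested, 5.46% were higher and 9.10% lower. Eif3j1 (0.81), Eif3l (0.73), Eif3m (0.72) and Eif3b (0.70), all of the eIF3 complex, and Eif2s2 were the 5, and their differences between the Q344X libraries were small where the ribosomal proteins' were large: the list's median was 0.11, against 0.66. Eif3e did not pass without either WT library or without Q344X replicate 2 (adjusted p = 0.0565 to 0.341), and Eif3j1, Eif3l, Eif3m and Eif3b did not pass when either WT library was left out.

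Genes that build or control ribosomes did not move together. Of 62 tested ribosome biogenesis genes, Mrto4 (0.80) rose, Tcof1 (-1.06) and Rrp1b (-0.83) fell and 59 did not pass (median 0.10). The share higher was 1.61%, beside 5.46% higher and 9.10% lower of all genes tested. Tcof1 encodes treacle, which acts in ribosomal RNA transcription. Ncl, the abundant nucleolar protein nucleolin, had 0.28 ± 0.17. Of 18 genes of mTORC1 and its surroundings, Maf1, a repressor of RNA polymerase III, rose (1.19 ± 0.28). Mycn also rose, from 198 and 229 normalized counts in WT to 414 and 549 in Q344X. Mlst8, an mTORC1 subunit, fell (-0.88 ± 0.19) and 15 did not pass (11.1% higher, median 0.13). Mtor itself was at 2583 and 2527 in WT and 2410 and 2036 in Q344X (-0.21 ± 0.18, and -0.08 without Q344X replicate 2). Single libraries decided several of these calls: Maf1, Mycn, Mlst8, Mrto4 and Rrp1b did not pass without WT replicate 1, Mlst8, Mrto4, Rrp1b and Tcof1 without WT replicate 2, and Mrto4 without Q344X replicate 2.

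The mitochondrial ribosome, which translates the few mRNAs of the mitochondrial genome, has its own proteins, encoded in the nucleus. Of 77 of these genes tested, 0 rose, Mrps25 (-1.31 ± 0.19) and Mrpl36 (-1.27 ± 0.26) fell and 75 did not pass, with a median of 0.31. At an unadjusted p under 0.05 in limma, 18 were higher and 5 lower, beside 2690 and 3143 of all 16833 genes tested. At the adjusted threshold, 5.46% of all genes tested were higher and 9.10% lower. Among 20 nuclear genes of the respiratory chain, Cox6c (1.0) and Cox5b (0.92) rose and 18 did not pass (10% higher, median 0.55). Among 8 tested mRNAs of the mitochondrial genome, 4 fell, led by mt-Cytb (-1.06), and 4 did not pass (median -0.72). Mrps25 and Mrpl36 did not pass without WT replicate 2, and Cox6c, Cox5b and mt-Cytb did not without WT replicate 1 or WT replicate 2.

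**Figure D4:**
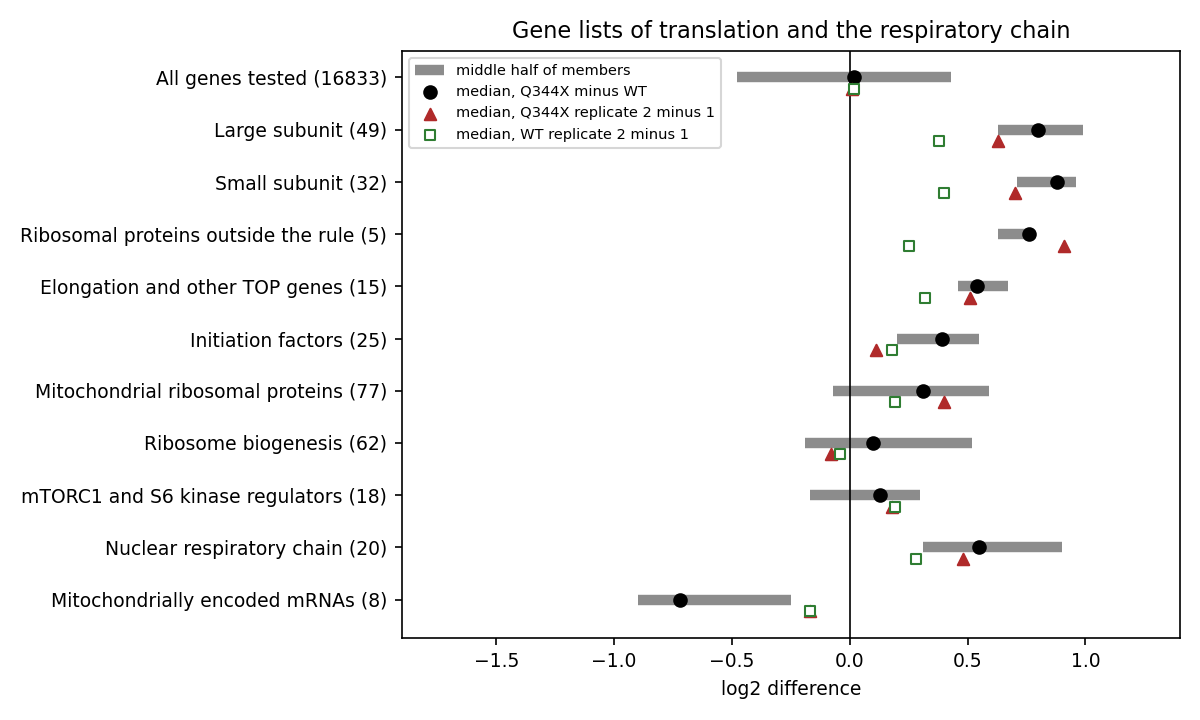
Median log2 difference of Q344X and WT (circle) with the quartiles of the genes (grey bar), and the median difference of replicate 2 and replicate 1 in Q344X (triangle) and WT (square), for all genes and 10 lists, with the number of tested genes in brackets. The circles of the 2 subunits of the cytosolic ribosome stand farthest to the right, at 0.80 and 0.88.

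Short mRNAs as a class were shifted in the same directions, by less. Tested coding genes were divided into 10 equal classes by mRNA length, and 67 of the 81 members were in the shortest, at 132 to 1080 bases. The other 1336 genes of that class had a median log2 fold change of 0.19 between genotypes, and 5.99% were higher and 6.06% lower. In the longest class the median was -0.16. Between the Q344X libraries the medians ran from 0.36 in the shortest to -0.36 in the longest class, and between the WT libraries from 0.18 to -0.10. The ribosomal proteins, at 0.82, 0.65 and 0.39 without paralogs, lay above the shortest class in all 3 differences. The part of mRNA length or RNA quality in the members' differences was not tested. The correction for length and GC content used all annotated exon bases of a gene, not the mRNA length of these classes. These can be equal (977 and 977 bases for Rps3a1) or far apart (6270 exon bases and an mRNA of 640 for Rps15a). Under that correction the median of the members was 0.92 and that of all genes 0.09. Within the family, fold change and length were weakly related (Spearman rho = -0.30 across 77 genes).

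**Figure D5:**
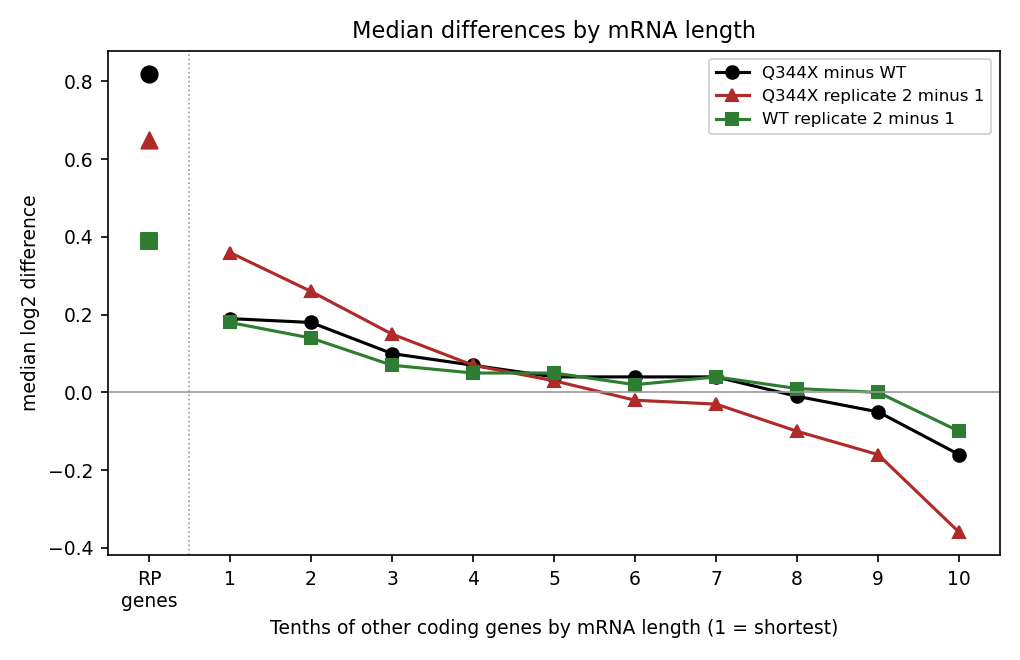
Median log2 difference (vertical axis) of Q344X and WT (circles), of the 2 Q344X libraries (triangles) and of the 2 WT libraries (squares), for ribosomal protein genes (left) and for other coding genes in 10 classes of mRNA length. The medians of other genes decline with length, from 0.19, 0.36 and 0.18 to -0.16, -0.36 and -0.10, and the ribosomal protein genes lie above the shortest class.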

How the data were processed

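Per the submitters' processing notes, the tools were STAR, featureCounts, DESeq2 1.16.1, FastQC and Trim Galore 0.4.4, and the build mm10, with their roles, the annotation and the strand setting not given in the sources used here. The authors deposited a signal per gene, counts divided by 1 size factor per library: all values were whole multiples (within 0.1) of the worth of 1 read, which gave the depths. Because 2 of these columns did not pass a unit check for recovered reads, a count model was not used.

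Ensembl identifiers gave symbols for 52403 of 52636 genes. Positions, gene types and lengths are from GENCODE M21 (GRCm38). In R 4.3.3 with limma 3.58.1, log2(normalized count + 1) was fitted on genotype with trended, moderated variances over 16833 genes with a mean of at least 10, with Benjamini-Hochberg adjustment over all of them with calls at an adjusted p under 0.05. On this log2(value + 1) scale the change of low genes is understated. Tests were two-sided. The fit was also run on simulated counts, drawn independently for each gene with the same dispersion (spread beyond counting error) for all genes. Those counts held no shift shared by genes of a library, so that run cannot speak to such shifts.

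The members and lists were chosen with earlier results of these data known. Symbols that fit the pattern but are typed as pseudogenes were set aside after the data were seen. Named were all members past the threshold, the 6 highest and lowest fold changes, the 6 highest levels per kilobase and members of fixed role groups; in other lists, up to 4 genes, those past the threshold first, and Rpl7, Rps27, Rpl38, Eif2s2 and the pseudogenes were named after their values were seen. Some genes are not reported here by name.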

Additional observations from a re-analysis of the deposited data

How the results depend on the processing

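The median log2 fold change of the 81 genes was 0.76 to 0.92 under other pseudocounts, filters, scalings, robust moderation and the length and GC correction, and 0.50 to 1.11 when 1 library was left out (0.48 to 1.10 for the large and 0.51 to 1.19 for the small subunit). The counts moved more. Testing every gene above 0 gave 153 higher and 383 lower genes, and 0 members higher (0 large, 0 small; 47 members at an unadjusted p under 0.05 in limma) with 0 higher and 0 lower in the 6 lists of related genes (translation, ribosome assembly and mTORC1) (43 higher at an unadjusted p under 0.05). Correction for length and GC gave 2007 higher genes, 47 members (29 large, 18 small) and 36 related genes. Quantile normalization gave 5 large-subunit genes and 6 related genes, 75th percentile scaling 6, and a minimum mean of 50 gave 5. Leaving out 1 library gave 555 to 2388 higher and 904 to 3045 lower genes, 3 to 78 members (2 to 46 large, 1 to 32 small), and 1 to 63 higher and 1 to 12 lower related genes; the low counts came without WT replicate 1 or 2 and the high counts without Q344X replicate 1. With 1 library left out, the lone library of its group is assumed to vary like the intact pair. With the 3 pseudogenes included, a choice made after the data were seen, 1 of 84 fell. Rpl10 turned to -0.02 under 75th percentile scaling, -0.03 under quantile normalization and -0.0012 without WT replicate 2, with a range of -0.0012 to 0.07 over the libraries left out. Rpl7l1 turned to 0.07 with the length and GC correction, 0.14 without WT replicate 2 and 0.18 without Q344X replicate 1, with a range of -0.23 to 0.18; neither passed in any of these. The difference in share of counts was 0.778 to 0.791 percentage points with other members or totals and 0.389 to 1.18 with 1 library left out. The cause of these changes was not tested. No paired analysis was possible because the labels give no replicate numbers and the numbers used here only name the libraries.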
